A study of Gallus gallus with 16 samples.

Results

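Genes of sugar absorption and of glucose release were examined in the jejunum, the part of the small intestine between duodenum and ileum. Of 8 listed genes, 6 had a probe set that the platform annotation gives to that gene alone: SI, SLC5A1, SLC2A5, PCK1, FBP1 and G6PC. Each of them had 1 such probe set, out of 20804 probe sets in all and 11528 genes with a single symbol. SLC2A2 and KHK had none and were not analysed here. The measurements come from 16 male broiler chickens sampled on day 21, 1 array per bird, with 4 birds on each of the diets labelled A, E, F and H. According to its title, the study concerned 2 kinds of feed additive, saponins and an essential oil blend prepared from oregano, thyme, rosemary and star anise. Which additive a letter stands for, and whether any letter is a control, is not stated in the labels. The diets were therefore taken in all 6 pairs, and each difference is the later letter minus the earlier one.

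In the small intestine, disaccharidases anchored in the brush border split sugars to monosaccharides. The sodium-coupled transporter SGLT1 then carries glucose and galactose into the enterocyte, GLUT5 carries fructose, and GLUT2 lets sugars leave toward the blood. Enterocytes also hold enzymes of gluconeogenesis, which builds glucose 6-phosphate from smaller precursors. Phosphoenolpyruvate carboxykinase and fructose-1,6-bisphosphatase catalyse steps on the way to it, and glucose-6-phosphatase frees the glucose. The labelled tissue was checked through markers. The mean log2 level over 7 measured enterocyte markers (FABP2, ANPEP, CDH17, EPCAM, APOA4, APOB and SLC15A1) lay between 11.78 and 12.46 in the 16 birds, above the upper quartile of every array (7.56 to 7.66). Hepatocyte markers, of interest because liver is rich in gluconeogenic enzymes, were mostly near or below the lower quartile of the array. FGA and AHSG lay below it in all 16 birds, ALB in 15, APOH in 12, TTR in 10 and FGB in 5 of 16. Each array's median correlation with the other arrays, across probe sets, was between 0.971 and 0.981. With 4 arrays per diet the number of arrays limits the precision. Levels are on a log2 scale, and differences between diets are taken within a probe set. The quartiles and median of the array serve only as a rough mark of low or high signal.

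The gene with the smallest p over the 4 diets was G6PC, the catalytic subunit of glucose-6-phosphatase, which was higher on diet F than on diets A and H in every bird, although it passed no test after adjustment. The other 5 genes overlapped between all diets. SI and SLC5A1 spanned 0.65 and 0.66 log2 units over the 16 birds. Their within-diet SDs were larger than those of 34.4% and 28.6% of all probe sets. SLC2A5, FBP1 and PCK1 varied widely between birds on the same diet. In limma's moderated F test over the 4 diets, adjusted over all probe sets, 0 of the 6 genes had an adjusted p under 0.05, against a background of 0% of all probe sets. At an unadjusted p under 0.05 only G6PC passed, 1 of 6, where 8.15% of all probe sets did. Over the alternative settings the unadjusted F test p of G6PC was at most 0.00995. That of PCK1, 0.325 in the main fit, ranged from 0.0212 to 0.571, so it passed this threshold in some settings. SI, SLC5A1, SLC2A5 and FBP1 passed it in none. In each of the 6 pairs, 0 of the 6 genes passed the adjusted threshold. The background was 0.00481% for diet H minus diet A, which is 1 probe set and none of these genes, and 0% for the other 5 pairs. At an unadjusted p under 0.05, G6PC was the only 1 of the 6 to pass in diet E minus diet A (background 7.71%), diet F minus diet A (6.83%), diet H minus diet E (9.52%) and diet H minus diet F (5.27%). In diet H minus diet A (11.5%) and diet F minus diet E (2.95%) 0 of the 6 passed. For G6PC this threshold was missed in 10 of 26 alternative settings in diet E minus diet A and in 17 of 26 in diet H minus diet E. In diet F minus diet A and diet H minus diet F it was missed in 0 of 26 (highest limma p 0.0399 and 0.0391). Several of the 26, such as leaving out a bird on another diet or a random block, leave the difference itself as it was and change only its error. The birds of both diets were fully apart for 1 of the 6, again G6PC, in diet F minus diet A, where 4.93% of all probe sets were apart in either direction, and in diet H minus diet F (4.04%). They were apart for 0 of the 6 in diet E minus diet A (3.86%), diet H minus diet A (6.07%), diet F minus diet E (2.01%) and diet H minus diet E (5.33%). Among 6 genes a count of 1 is the smallest above 0, so these counts by themselves do not set the genes apart from the background.

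**Figure D1:**
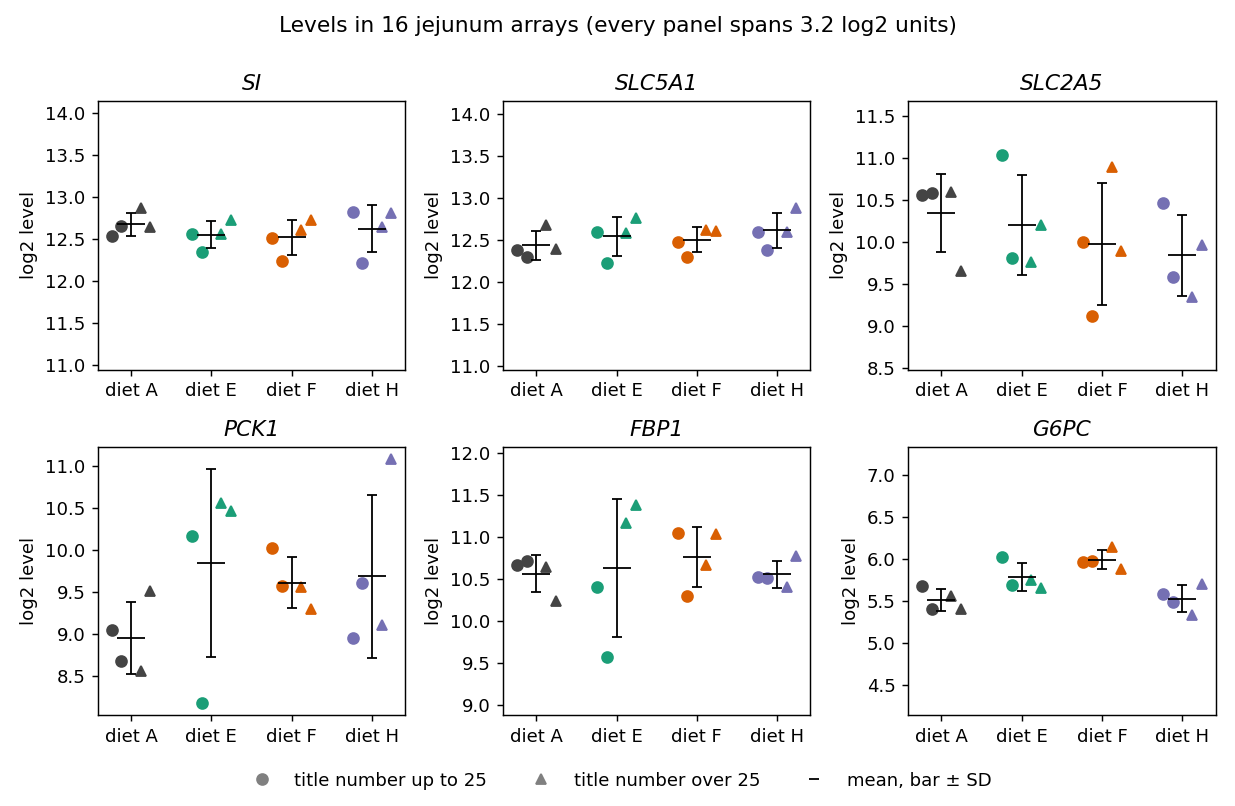
Log2 level (vertical axis) of 6 sugar genes in each of 16 birds, grouped by diet on the horizontal axis, with black bars for mean ± SD (n = 4). All panels have the same span, so the narrow bands of SI, SLC5A1 and G6PC and the wide scatter of PCK1, FBP1 and SLC2A5 can be compared by eye, and the 4 birds on diet F lie above all birds on diets A and H for G6PC.

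SI, sucrase-isomaltase, is the brush border enzyme that splits sucrose and the short chains left from starch. Its log2 levels were 12.53, 12.65, 12.86 and 12.64 on diet A and 12.56, 12.34, 12.56 and 12.73 on diet E. On diet F they were 12.51, 12.24, 12.61 and 12.72, and on diet H 12.82, 12.22, 12.64 and 12.81. All 4 diets overlapped, and the whole series spanned 0.65 log2 units, or 1.56-fold. Diet means ran from 12.52 ± 0.21 on diet F through 12.55 ± 0.16 on diet E and 12.62 ± 0.28 on diet H to 12.67 ± 0.14 on diet A (SD, n = 4), and no neighbours in this order differed beyond their spread. The largest difference, diet F minus diet A, was -0.15 (SE 0.148, 95% confidence interval -0.47 to 0.16, limma adjusted p = 0.841). It was -0.06 without diet F replicate 2, -0.09 without diet A replicate 3 and -0.27 with a linear term for title number. Title numbers rise from diet A through E and F to H, both up to 25 and again above 25. The linear term therefore also takes up differences between diets.

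SLC5A1 encodes SGLT1, the sodium-glucose cotransporter of the brush border. The 4 birds on diet A had log2 levels of 12.38, 12.30, 12.68 and 12.39, and those on diet E 12.60, 12.23, 12.59 and 12.77. Birds on diet F had 12.48, 12.31, 12.63 and 12.61, and birds on diet H 12.59, 12.38, 12.60 and 12.89. Again every pair of diets overlapped, within a total span of 0.66 log2 units (1.58-fold). Diet A had the lowest mean, 12.44 ± 0.17, followed by diet F with 12.51 ± 0.15, diet E with 12.55 ± 0.23 and diet H with 12.62 ± 0.21 (SD, n = 4). Neighbouring diets in this order did not differ beyond their spread. Between the ends of the order, diet H minus diet A was 0.18 (SE 0.141, 95% confidence interval -0.12 to 0.48, limma adjusted p = 0.654). Without diet H replicate 4 it was 0.09, and with a linear term for title number 0.00. As for SI, that term also takes up differences between diets. With title numbers up to 25 and above 25 as a block, the difference was again 0.18. Each of these ranges holds 2 birds per diet, so such a block cannot move a difference between diets.

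SLC2A5 encodes GLUT5, the fructose carrier of the brush border. Its log2 levels were 10.56, 10.59, 10.59 and 9.65 on diet A and 11.04, 9.81, 9.76 and 10.20 on diet E. On diet F they were 10.01, 9.12, 10.90 and 9.89, and on diet H 10.46, 9.59, 9.35 and 9.97. The birds of a single diet were thus up to 1.78 log2 units apart (diet F), and all diets overlapped. The diet means were, from high to low, 10.35 ± 0.46 on diet A, 10.20 ± 0.59 on diet E, 9.98 ± 0.73 on diet F and 9.84 ± 0.48 on diet H (SD, n = 4). No step in this order exceeded the spread, and from end to end diet H minus diet A was -0.50 (SE 0.368, 95% confidence interval -1.29 to 0.28, limma adjusted p = 0.626). The within-diet SD of SLC2A5, 0.58, was larger than that of 92.9% of all probe sets.

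PCK1, the cytosolic phosphoenolpyruvate carboxykinase, commits carbon to gluconeogenesis and also to the synthesis of glycerol 3-phosphate. It had the largest spread and the largest differences between diet means among the 6 genes. On diet A the birds had log2 levels of 9.04, 8.67, 8.55 and 9.51, and on diet E 10.16, 8.17, 10.55 and 10.46. On diet F they had 10.02, 9.56, 9.56 and 9.29, and on diet H 8.94, 9.60, 9.10 and 11.08. On diet A 3 of 4 birds lay between 8.55 and 9.04, and a bird on diet H, at 8.94, lay in that span too. Diet E held the lowest bird of the series and diet H the highest, 2.90 log2 units or 7.48-fold apart. The means were 8.94 ± 0.43 on diet A, 9.61 ± 0.30 on diet F, 9.68 ± 0.97 on diet H and 9.84 ± 1.12 on diet E (SD, n = 4). The within-diet SD of PCK1, 0.79, was larger than that of 98% of all probe sets.

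PCK1 differed from diet A by 0.89 on diet E (SE 0.497, 95% confidence interval -0.17 to 1.95, limma adjusted p = 0.686). On diet F the difference from diet A was 0.66 (95% confidence interval -0.39 to 1.72, limma adjusted p = 0.786), and on diet H it was 0.74 (95% confidence interval -0.32 to 1.79, limma adjusted p = 0.59). These 3 comparisons share the birds on diet A. None passed. For diets E and H a single bird decided the size. Without diet E replicate 2 the difference of diet E from diet A was 1.45 (limma adjusted p = 0.376), and without diet H replicate 4 that of diet H from diet A was 0.27 (limma adjusted p = 0.923). Without any single bird, diet F minus diet A stayed between 0.53 and 0.85. Among diets E, F and H the differences of PCK1 lay between -0.23 and 0.07, and single birds decided these too. Without diet E replicate 2, diet F minus diet E was -0.78 and diet H minus diet E -0.71, and without diet H replicate 4, diet H minus diet F was -0.39.

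FBP1, fructose-1,6-bisphosphatase, catalyses a regulated step of gluconeogenesis upstream of glucose 6-phosphate. Its log2 levels were 10.67, 10.71, 10.65 and 10.24 on diet A and 10.41, 9.57, 11.17 and 11.39 on diet E. On diet F they were 11.05, 10.31, 10.67 and 11.04, and on diet H 10.53, 10.51, 10.41 and 10.78. Diet E contained both the lowest and the highest bird of the series, 1.81 log2 units (3.51-fold) apart, and enclosed the ranges of the other diets. The means, 10.56 ± 0.16 on diet H, 10.57 ± 0.22 on diet A, 10.63 ± 0.82 on diet E and 10.77 ± 0.36 on diet F (SD, n = 4), did not differ beyond their spread. The widest difference, diet H minus diet F, was -0.21 (SE 0.302, 95% confidence interval -0.85 to 0.43, limma adjusted p = 0.897). It was -0.11 without diet F replicate 1, -0.12 without diet F replicate 4 and -0.36 without diet F replicate 2.

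G6PC completes glucose release by removing the phosphate from glucose 6-phosphate. It had a small spread between birds of a diet, and its mean on diet F stood apart from those on diets A and H. The 4 birds on diet A had log2 levels of 5.67, 5.40, 5.56 and 5.41, and those on diet H 5.59, 5.49, 5.33 and 5.70. On diet E they were 6.02, 5.69, 5.75 and 5.65, and on diet F 5.96, 5.98, 6.15 and 5.88. Diets A and H covered the same range, all birds on diet F lay above it, and diet E fell between and overlapped with the other diets. Its within-diet SD, 0.14, was larger than that of only 9.57% of all probe sets. Differences between diet means made up 71.9% of the sum of squares of G6PC over the 16 birds, against 4.07% for FBP1, 10.5% for SI, 13.2% for SLC2A5, 13.3% for SLC5A1 and 20% for PCK1. These shares describe the same differences as the F test, in which no member passed after adjustment. No such share was computed over all probe sets.

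In order, the diet means of G6PC were 5.51 ± 0.13 on diet A, 5.52 ± 0.16 on diet H, 5.78 ± 0.17 on diet E and 5.99 ± 0.11 on diet F (SD, n = 4). Diet F minus diet A was 0.48 (SE 0.117, 1.39-fold, 95% confidence interval 0.23 to 0.73), with an unadjusted p of 0.000892, the rank 18 of 20804 probe sets, and a limma adjusted p of 0.721. Diet H minus diet F was -0.47 (SE 0.117, 95% confidence interval -0.72 to -0.22), with an unadjusted p of 0.00112, rank 14, and a limma adjusted p of 0.842. In both pairs G6PC was the only 1 of the 6 genes whose ranges did not overlap. For comparison, 2.42% of all probe sets lay wholly higher on diet F than on diet A, and 2.54% lay wholly lower on diet H than on diet F. Between diets A and H the means of G6PC differed by 0.01 (95% confidence interval -0.24 to 0.26).

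Diet E stood between these levels of G6PC. It differed from diet A by 0.27 (SE 0.117, unadjusted p = 0.0368, limma adjusted p = 0.621), where 4.74% of all probe sets were higher at an unadjusted p under 0.05. Diet H minus diet E was -0.25 (SE 0.117, unadjusted p = 0.0456, limma adjusted p = 0.523), where 5.66% of all probe sets were lower at that threshold. Both missed it with quantile normalization, median centring, only the 2 diets compared, or a random block for adjoining title numbers (unadjusted p = 0.064 and 0.0766 with the block). Diet F minus diet E was 0.21 (95% confidence interval -0.04 to 0.46, limma adjusted p = 1). Thus neighbours A and H did not differ beyond their spread, and the step from E to F overlapped. In the F test over the 4 diets G6PC had an unadjusted p of 0.002305, rank 69, and a limma adjusted p of 0.581.

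The signal of G6PC was low on these arrays. All 16 birds lay above the lower quartile of their array (4.45 to 4.61), 2 of 16 lay above the array median (5.94 to 6.10), and no measure of signal over background was used here. Marker levels of several cell types were set beside it. Over 6 hepatocyte markers, the bird means ranged from 3.76 to 4.18 on diet F, 3.67 to 4.25 on diet A, 3.81 to 4.26 on diet H and 3.92 to 5.0 on diet E. Over 4 exocrine pancreas markers they ranged from 5.14 to 5.41 on diet F, 5.12 to 5.23 on diet A, 5.06 to 5.37 on diet H and 5.14 to 5.29 on diet E. Over 5 leukocyte markers they ranged from 8.33 to 8.57 on diet F, 7.87 to 8.96 on diet A, 7.82 to 8.76 on diet H and 8.08 to 8.37 on diet E, and over 3 smooth muscle markers from 6.08 to 7.49, 6.43 to 7.18, 6.07 to 7.20 and 6.41 to 7.07. The means of these 4 lists overlapped between every pair of diets. Of single markers in them, CD8A and CD3D lay wholly lower on diet H than on diet F, by -0.81 (SE 0.309) and -0.39 (SE 0.21). They are 2 of the 5 leukocyte markers, where 2.54% of all probe sets lay wholly lower. CD3E had a lower mean on diet H (-0.31) but overlapped, and PTPRC (0.13) and CD4 (0.38) had higher ones. Over 6 crypt and dividing cell markers the birds lay between 5.57 and 6.33 on diet F, below all birds on diet A (6.84 to 7.59), while diets H (5.26 to 7.39) and E (5.38 to 7.73) overlapped both. OLFM4, SLC12A2 and CDK1, 3 of these 6, lay wholly lower on diet F than on diet A, where 2.51% of all probe sets did. The differences were -3.95 for OLFM4, -0.72 for SLC12A2 and -1.07 for CDK1. LGR5, MKI67 and TOP2A had lower means on diet F too but overlapped with diet A. Over 7 enterocyte markers the birds lay between 12.13 and 12.31 on diet F and between 11.78 and 12.27 on diet A. On diet H they lay between 12.18 and 12.46, and on diet E between 11.91 and 12.42. All 7 had higher means on diet F than on diet A. Of them ANPEP lay wholly higher, by 0.23, where 2.42% of all probe sets did. The part of these markers in the level of G6PC was not tested. In a bulk sample, fewer cells of a type and less RNA per cell cannot be told apart.

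**Figure D2:**
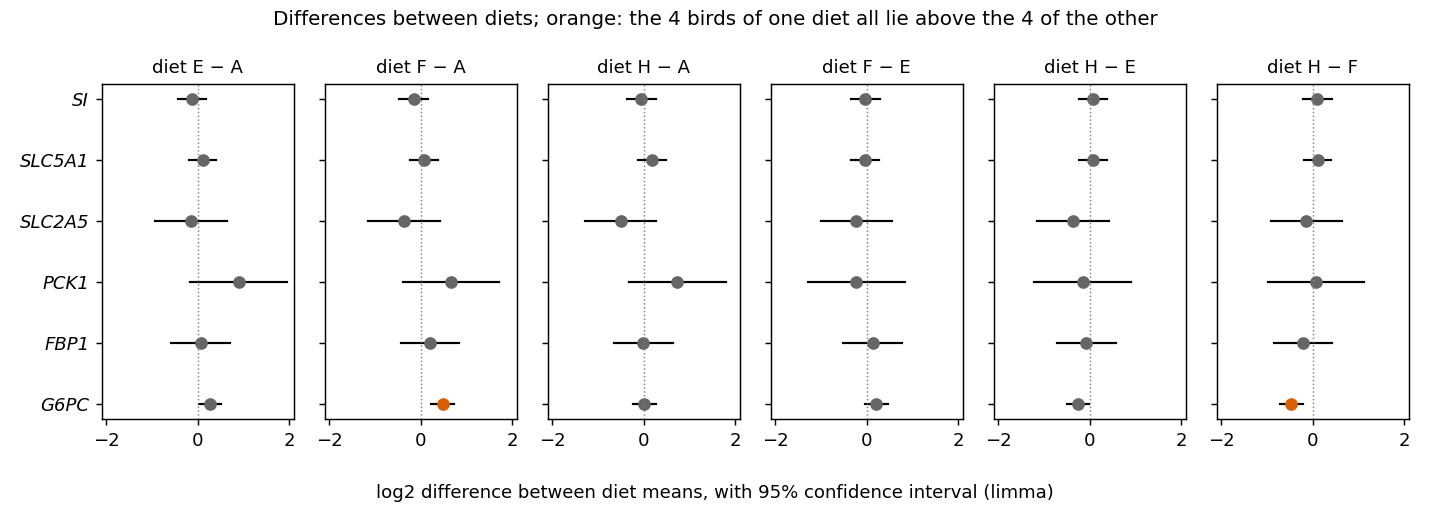
Differences between diet means in log2 units (horizontal axis) for 6 genes in the 6 pairs of diets, with 95% confidence intervals from limma. Orange points mark G6PC in diet F minus diet A (0.48) and diet H minus diet F (-0.47), where the ranges of the birds did not overlap, and the intervals of PCK1 and SLC2A5 are the widest.

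The birds' numbers in the sample titles fall into a lower range, up to 25, and an upper range, above 25. Each range holds 2 birds per diet. The labels do not say what the ranges are. SLC5A1 had a higher mean in the upper than in the lower range in 4 of 4 diets, by 0.24 overall (SE 0.0785, limma adjusted p = 0.0792), and SI likewise in 4 of 4 diets, by 0.21 (SE 0.0893, limma adjusted p = 0.154). Neither passed, in a comparison, added after seeing the data, where 8.39% of all probe sets had an adjusted p under 0.05 and 25.2% an unadjusted one. G6PC differed by -0.05 between the ranges (limma adjusted p = 0.762). Its diet F minus diet A difference was 0.43 within the lower and 0.53 within the upper range, and its diet H minus diet F difference was -0.43 and -0.50. For PCK1 the difference of diet E from diet A was 0.31 among low title numbers and 1.48 among high ones, for FBP1 it was -0.70 and 0.84, and for SLC2A5 the difference of diet F from diet A was -1.01 and 0.27. With 2 birds per diet in each range, the difference thus changed in size for PCK1 and in sign for FBP1 and SLC2A5.

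Across the 16 birds, 27 relations were examined, namely the 15 pairs of genes and each gene against the mean level of 7 enterocyte and of 6 crypt and dividing cell markers. Of these, 4 passed a permutation test (100000 resamples, two-sided, Benjamini-Hochberg over the 27). A further 24 relations, added later and given below, were adjusted separately. No adjustment over both sets was run, and the Spearman adjusted p of these 4, each 0.0431, lie close to the threshold of 0.05. The permutations ran over all 16 birds and kept neither diet nor title range fixed. A shift shared by the birds of a diet or of a range thus counts toward these p-values. SI and SLC5A1 varied together, with Pearson r = 0.718 (adjusted permutation p = 0.0107) and Spearman rho = 0.674 (adjusted permutation p = 0.0431). Without the 2 birds farthest from the median of SLC5A1, r was 0.636. Within the title ranges r was 0.581 and 0.596 (8 birds each), and with the diet means removed it was 0.848. In absolute terms both genes stayed within 0.66 log2 units, so the relation concerns small shifts. SLC5A1 also followed the enterocyte markers, with r = 0.756 and rho = 0.671 (adjusted permutation p = 0.00756 and 0.0431), an r of 0.626 without the 2 farthest birds, and 0.616 and 0.525 within the ranges.

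**Figure D3:**
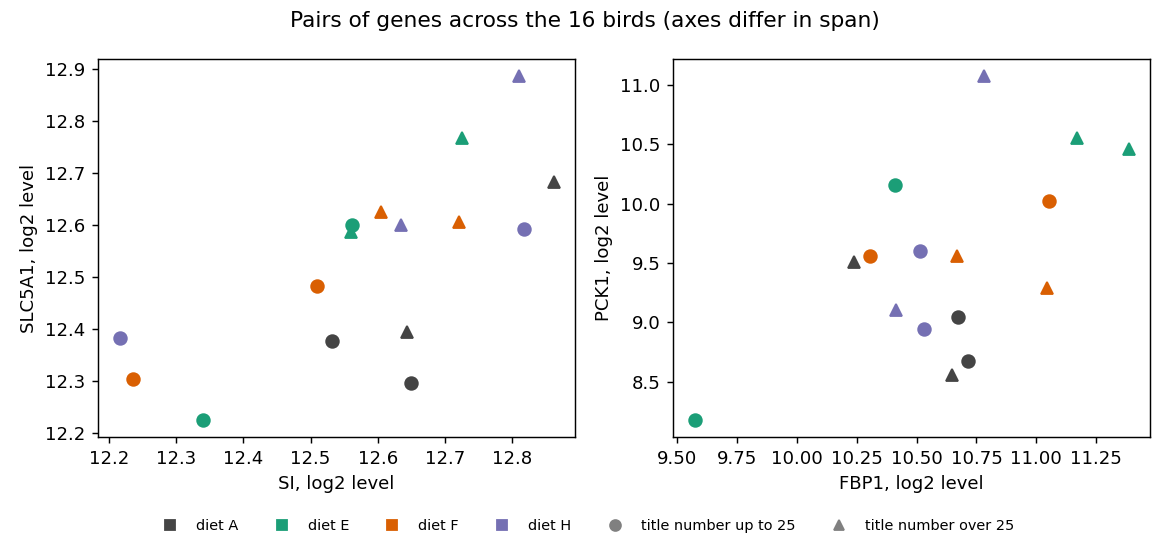
Each point is a bird, coloured by diet and shaped by title number range, with log2 levels on both axes: SLC5A1 against SI on the left (Pearson r = 0.718) and PCK1 against FBP1 on the right (r = 0.579). The axes span less than 1 log2 unit on the left and more on the right, and diet E replicate 2 is the lowest bird for both PCK1 and FBP1.

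PCK1 moved with the cell type markers of the sample. Against the crypt and dividing cell markers (LGR5, OLFM4, SLC12A2, MKI67, TOP2A and CDK1) its Pearson r was -0.758 and its Spearman rho -0.706 (adjusted permutation p = 0.00756 and 0.0431). Against the enterocyte markers r was 0.747 and rho 0.662 (adjusted permutation p = 0.00756 and 0.0431). Without the 2 birds farthest from the median of PCK1 these r were -0.631 and 0.61. Within the lower and upper title ranges they were -0.71 and -0.843 for the crypt markers, and 0.649 and 0.943 for the enterocyte markers. The crypt marker level is an unweighted mean of 6 genes, and PCK1 was not set against them singly. Of these, OLFM4 had the widest spread, with means of 9.92 on diet A and 5.97 on diet F and an SD of 2.75 on diet E. LGR5 lay below the lower quartile of the array in 13 of 16 birds. The enterocyte marker level is likewise an unweighted mean. Among its genes APOB had the widest spread on diets E and H, with SDs of 0.80 and 0.58. Neither PCK1 nor SLC5A1 was set against the enterocyte markers singly. The lowest bird for PCK1, diet E replicate 2 at 8.17, had the highest crypt marker level of the 16 birds, 7.73. The highest bird, diet H replicate 4 at 11.08, had the lowest crypt marker level, 5.26, and the highest enterocyte marker level, 12.46. On diet A, which had the lowest mean of PCK1, the crypt markers lay between 6.84 and 7.59 and the enterocyte markers between 11.78 and 12.27. The other 4 marker lists gave 24 further relations with the 6 genes, added after seeing the data, of which 0 passed the same test adjusted over the 24. The strongest of the 24 was SI with the 4 exocrine pancreas markers, at r = -0.627 and rho = -0.647 (unadjusted permutation p = 0.00945 and 0.00839, adjusted 0.166 and 0.146). Within the lower and upper ranges its r was -0.742 and 0.102. For PCK1 the strongest was with the 6 hepatocyte markers, at r = 0.595 and rho = 0.621 (unadjusted permutation p = 0.0138 and 0.0122, adjusted 0.166 and 0.146). Without the 2 farthest birds r was 0.653, and within the lower and upper ranges it was 0.176 and 0.743. With the 5 leukocyte markers r was -0.444 and rho -0.453 (adjusted permutation p = 0.552 and 0.614). The part of the cell makeup of the samples in the differences of PCK1 between diets was not tested.

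**Figure D4:**
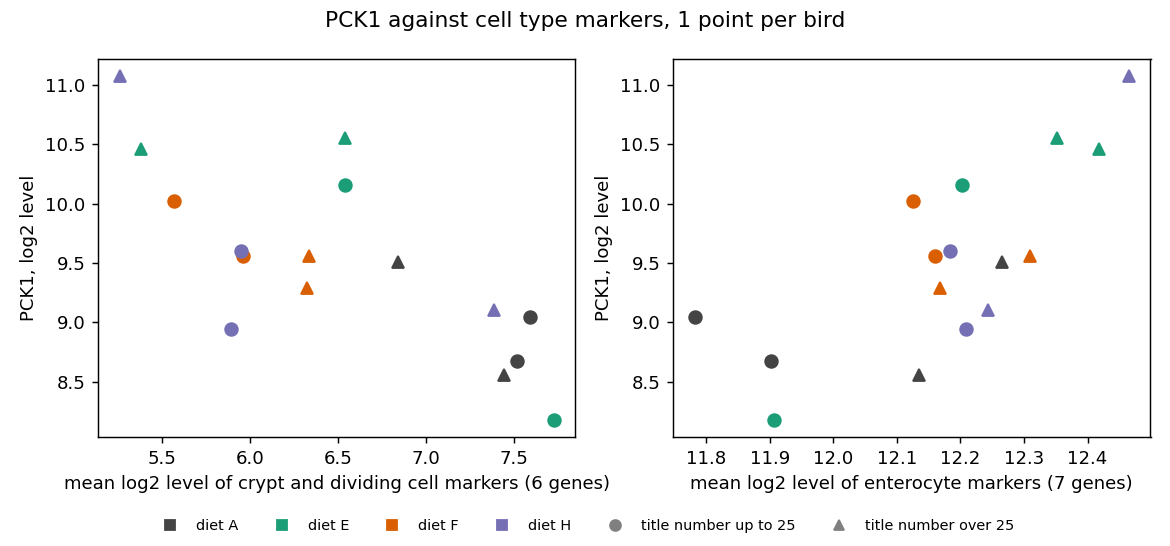
PCK1 (vertical axis, log2 level) against the mean log2 level of 6 crypt and dividing cell markers on the left and of 7 enterocyte markers on the right, 1 point per bird, coloured by diet. The bird at 11.08 for PCK1 has the lowest crypt marker level, 5.26, and the bird at 8.17 has the highest, 7.73; on the right the points run from low left to high right.

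PCK1 and FBP1, which act in the same pathway, had r = 0.579 (adjusted permutation p = 0.0693) and rho = 0.432 (adjusted permutation p = 0.273), and r was 0.299 without the 2 birds farthest from the median of FBP1. With the diet means removed r was 0.627, and within the title ranges it was 0.549 and 0.508. That relation did not pass, and it weakened without those birds. G6PC passed in none of its relations. Its r was -0.385 with the crypt and dividing cell markers, 0.333 with PCK1, 0.277 with SLC2A5, -0.192 with SI, 0.16 with FBP1, 0.137 with SLC5A1 and 0.135 with the enterocyte markers, with adjusted permutation p from 0.294 to 0.699. With the diet means removed, r with SLC2A5 was 0.676, and without the 2 birds farthest from the median of SLC2A5 it was -0.162. SLC2A5 likewise passed in none, with r = 0.457 against SI, 0.26 against SLC5A1 and -0.168 against the enterocyte markers.

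The genes most like each member over the 16 arrays, by Pearson r among all genes with a single symbol, are given as a description. For PCK1 they were PRAP1 (r = 0.973), ZDHHC23 (r = 0.941) and CEP170B (r = 0.896), and PRAP1, a proline-rich acidic protein, itself ranged from 9.80 to 11.25. For FBP1 they were ENTPD5, an enzyme that hydrolyses nucleoside diphosphates (r = 0.905), the aldehyde dehydrogenase ALDH2 (r = 0.899) and the phosphatase PHOSPHO1 (r = 0.892). For SLC5A1 they were MYRF (r = 0.911), SLC7A9, a subunit of a carrier for cystine and basic amino acids (r = 0.904), and ZNF318 (r = 0.897). For SI they were ST3GAL5, a sialyltransferase that makes the ganglioside GM3 (r = 0.94), BG8 (r = 0.799) and the sodium-proton exchanger SLC9A2 (r = 0.794). For SLC2A5 the values were lower: the mitochondrial glycerol-3-phosphate dehydrogenase GPD2 (r = 0.825), SLC44A5 (r = 0.778) and ACSS1A (r = 0.724).

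For G6PC the most similar genes were CD55 (r = 0.932), FBXW8 (r = 0.849) and KLHL17 (r = 0.845). CD55, in mammals a membrane protein that restrains complement, lay between 3.67 and 4.44 in all birds, under the lower quartile of every array. With the diet means removed, r with G6PC was 0.877 for CD55, 0.656 for FBXW8 and 0.69 for KLHL17.

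The rest of the pathway was read from 4 lists, in which 0 genes passed the adjusted threshold in any comparison. Of other genes of sugar uptake and luminal digestion 16 of 24 were measured. At an unadjusted p under 0.05 in the F test, 1 of the 16 passed, against the background of 8.15%. This was SLC2A11, a member of the facilitative sugar transporter family, with means of 5.57 ± 0.16 on diet A, 5.71 ± 0.23 on diet E, 5.97 ± 0.30 on diet F and 6.04 ± 0.11 on diet H (SD, n = 4). It differed between diets A and H by 0.47 (SE 0.151, limma adjusted p = 0.254), with no overlap of the birds, where 2.89% of all probe sets lay wholly higher. LCT, which in mammals splits lactose, had means of 9.98 ± 0.21, 10.60 ± 0.97, 10.70 ± 0.40 and 10.97 ± 0.40 in the order A, E, F, H (SD, n = 4), and diet H minus diet A was 0.99 (SE 0.365, limma adjusted p = 0.318). The taste receptor subunit TAS1R3 had means of 4.75, 5.08, 4.95 and 4.68 on diets A, E, F and H, and TAS1R1 had 5.59, 5.63, 5.53 and 5.37, with limma adjusted p of 0.645 and 0.723 over the 4 diets. In diet F minus diet A and in diet H minus diet A, 2 of the 16 genes, SLC2A11 and LCT, lay wholly higher, against 2.42% and 2.89% of all probe sets. TAS1R3 lay wholly higher on diet E than on diet A (1 of 16, against 2.49%). It lay wholly lower on diet H than on diet E (1 of 16, against 3.23%). In 2 of 16 birds TAS1R3 was below the lower quartile of the array. The median difference of the 16 genes lay between -0.05 and 0.08 in the 6 pairs.

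Of other genes of gluconeogenesis and glucose release, many of them shared with glycolysis, 13 of 22 were measured. Between diets A and H, 4 of the 13 were lower on diet H at an unadjusted p under 0.05 and 0 higher, where 5.91% of all probe sets were lower and 5.62% higher. They were GOT2, the mitochondrial aspartate aminotransferase, at -0.56 (SE 0.154), LDHB, a lactate dehydrogenase subunit, at -0.84 (SE 0.299), triosephosphate isomerase TPI1 at -0.25 (SE 0.101), and GAPDH at -0.22 (SE 0.0982), with limma adjusted p from 0.215 to 0.413. On diet H 5 of the 13 lay wholly below diet A, where 3.18% of all probe sets did. GAPDH was added to the named genes after its values were seen. In the same pair, cell type markers differed at that threshold too: 3 of 7 enterocyte markers were higher on diet H (SLC15A1, CDH17 and EPCAM), and 5 of 6 crypt and dividing cell markers, 2 of 5 leukocyte markers (CD3D and CD8A) and 1 of 3 smooth muscle markers (ACTG2) were lower. Of the hepatocyte and exocrine pancreas markers 0 of 6 and 0 of 4 passed it. Their part in the levels of the 13 genes was not tested. LDHB had means of 9.15 ± 0.10 on diet A against 8.29 ± 0.70, 8.46 ± 0.14 and 8.31 ± 0.58 on diets E, F and H (SD, n = 4), and GOT2 9.42 ± 0.19 against 9.08 ± 0.23, 9.19 ± 0.15 and 8.86 ± 0.26. GOT1, the cytosolic aminotransferase, had a mean of 10.66 ± 0.08 on diet F and 10.36 ± 0.19 on diet H. Between these diets 12 of the 13 genes had lower means on diet H, 3 of them at an unadjusted p under 0.05, where 45.2% of all probe sets had higher means and 3.25% were lower at that threshold. The median difference of the 13 genes from diet A was -0.11 on diet E, -0.03 on diet F and -0.09 on diet H, beside 0.03, 0.02 and 0.00 over all probe sets.

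The partner of G6PC, the glucose 6-phosphate carrier SLC37A4 of the endoplasmic reticulum, was named for this role, outside the rule for named genes and after its values were seen, as was G6PC2. Its means were 8.56 ± 0.19 on diet A, 8.66 ± 0.81 on diet E, 8.73 ± 0.16 on diet F and 8.67 ± 0.14 on diet H (SD, n = 4), and diet F minus diet A was 0.17 (SE 0.279). The related G6PC2 had means of 4.69, 4.55, 4.72 and 4.82 on diets A, E, F and H and lay below the lower quartile of the array in 4 of 16 birds. Like G6PC, SLC37A4 had its lowest mean on diet A and its highest on diet F, but that difference was smaller than its SE. Its diet H minus diet E difference was 0.01 (SE 0.279), so the order of its diets is not determined. G6PC2 had its lowest mean on diet E and its highest on diet H.

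Of genes of hexose phosphorylation and glycolysis 12 of 23 were measured, and 0 had an unadjusted p under 0.05 in the F test or in any of the 6 pairs, against a background of 2.95% to 11.5% in the pairs. Those with the smallest p in the F test were the phosphofructokinases PFKL, PFKM and PFKP and the pyruvate kinase PKLR, with limma adjusted p between 0.71 and 0.737. PFKL had means of 8.75, 8.55, 8.80 and 8.51 on diets A, E, F and H, and PKLR 10.76, 10.51, 10.67 and 10.48. HKDC1 lay wholly higher on diet F than on diet A (1 of 12, against 2.42% of all probe sets), by 0.08 (SE 0.109). PFKL lay wholly lower on diet H than on diet F (1 of 12, against 2.54%), by -0.29 (SE 0.151). Of regulators of sugar genes 16 of 24 were measured, and 0 had an unadjusted p under 0.05 in the F test. In the pairs, HNF4G was higher at that threshold in diet H minus diet E (1 of 16, against 3.86% of all probe sets) and diet H minus diet F (1 of 16, against 2.02%). GATA4 was higher in diet F minus diet A (1 of 16, against 3.78%), where its birds did not overlap (1 of 16, against 2.42%). GATA6 lay wholly higher on diet E than on diet A (1 of 16, against 2.49%). Among 16 genes, counts of 1 do not set the regulators apart from the background. HNF4G, a nuclear receptor of the intestinal epithelium, had means of 10.19 ± 0.41, 10.01 ± 0.13, 9.94 ± 0.22 and 10.42 ± 0.24 in the order A, E, F, H (SD, n = 4), and diet H minus diet F was 0.47 (SE 0.184, limma adjusted p = 0.842). The transcription factors GATA4, MLXIP and CEBPB followed, and GATA4 was at 9.79 on diet A and 10.08 on diet F (limma adjusted p = 0.731). The median difference of the 16 regulators was 0.15 in diet H minus diet A and between -0.01 and 0.05 in the other pairs.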

How the data were processed

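Total RNA of jejunum was labelled with biotin for 1-colour arrays, per the labels' protocols, and GCOS 1.1.1 is named per the submitters' processing notes. The authors deposited a value table that was read here as log2 intensities from its range. The sources used here do not give the summarization, normalization or log base, and near-equal quartiles show scaling between arrays. The design text speaks of 4 chickens per diet, so each array was taken as a separate bird. Gene symbols came from the platform annotation, which may be dated. Among the 20804 probe sets, 1644 had the same 16 values as another, none of them a member.

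With R 4.3.3 and limma 3.58.1, the 4 diet means were estimated from the 16 arrays in 1 linear model without covariates or a filter. P-values of the moderated F test and of 6 contrasts received the Benjamini-Hochberg adjustment across the whole array, at a threshold of 0.05. Every adjusted p outside the correlations is limma's. On simulated data with 200 of 20804 probe sets changed on diet F alone, contrasts with that diet recovered 72% of those at log2 size 1 and 94% to 95% at size 2. The simulated noise was independent between arrays and held no shift between title ranges, and smaller sizes were not simulated. The largest differences of PCK1 (0.89) and G6PC (0.48) were below size 1, so these rates do not apply to them. Members and gene lists were chosen with earlier results of these data known. The named genes were all members, the 4 genes of each list with the smallest F test p, and the 3 genes most correlated with each member. GAPDH, SLC37A4, G6PC2, GATA6, HKDC1 and single cell type markers were named outside this rule, after their values were seen. Marker lists were summarised as means over genes.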

Additional observations from a re-analysis of the deposited data

Results flagged for a closer look

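In 3 of 24 groups of 4 birds (6 genes on 4 diets), a single bird lay far from the other 3, with a gap to its nearest neighbour that took up more of the group's range than Dixon's 95% critical value for a group of 4. Chance alone marks about 1 in 20 groups. SLC2A5 on diet A had 3 birds between 10.56 and 10.59 and replicate 4 at 9.65, a gap of 0.963 of the range. FBP1 on diet A had the same bird lowest, at 10.24 against 10.65 to 10.71, a gap of 0.863 of the range. PCK1 on diet E had replicate 2 at 8.17 against 10.16 to 10.55, a gap of 0.833 of the range, and this bird had the lowest FBP1 level of the series, 9.57.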

How the results depend on the processing

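No gene of the 6 passed an adjusted p of 0.05 in the F test or in any pair under any of the alternatives run: a random block for birds with adjoining title numbers (its correlation came to 0.173), the title number range as a block, the title number as a linear covariate, median centring, quantile normalization, dropping the lowest 25% of probe sets, only the 2 diets compared (pairs only), eBayes with trend and robust settings, and leaving out each of the 16 birds. Within each title range, an alternative chosen after seeing the data, none passed either. The alternative of averaging several probe sets of a gene had nothing to average, since each gene had 1. G6PC kept its sign in diet F minus diet A (0.43 to 0.53 without single birds, smallest limma adjusted p 0.256, with the linear covariate) and in diet H minus diet F (-0.53 to -0.40, smallest limma adjusted p 0.426, with the range block). With the linear covariate, PCK1 in diet H minus diet A was 0.36. That covariate also takes up differences between diets, since title numbers rise with the diet letter within each range. Small differences changed sign easily: FBP1 in diet H minus diet A (-0.01) did so in 8 of 24 alternatives. Several of the 24, such as leaving out a bird on diet E or F, cannot move that difference. No paired analysis was possible because the labels give the diets no shared replicate numbers. Depth does not apply to arrays, and the signal over background is unknown, which bears on G6PC, above the array median in 2 of 16 birds.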
